A study of Mus musculus with 8 samples.

Results

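TREM2, DAP12 and the ITAM signalling proteins that act below them were followed through 9 genes: Trem2, Tyrobp (the gene of DAP12), Lyn, Syk, Btk, Plcg2, Vav1, Pik3cg and Inpp5d. They were matched by gene symbol, and all 9 were found among the 54532 genes listed for the PTS + RS and RS libraries and among the 28229 genes listed for the RGFP109 and NaCl libraries. All 9 passed the filter on low counts in both comparisons.

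TREM2 is a receptor of microglia, the resident macrophages of the brain, that binds lipids, lipoproteins such as apolipoprotein E and debris of damaged cells. It has no signalling tail of its own and pairs with the adaptor DAP12, whose ITAM is phosphorylated by Src family kinases such as LYN and then recruits the kinase SYK. SYK in turn engages phospholipase C gamma 2, the VAV1 exchange factor, BTK and PI3 kinases, while the inositol phosphatase SHIP1, encoded by Inpp5d, restrains the pathway.

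RNA was sequenced from bulk brain tissue of male C57BL/6 mice on Day 21, with 2 libraries in each of 4 groups. The PTS + RS group had photothrombotic stroke, a light-induced clot in the cortex, together with daily restraint stress, and the RS group had restraint stress without stroke. Both groups were sampled from cortex by the labels. The study describes the sequenced tissue as damaged cortex and, in a figure legend, as cortex near the damage. The RGFP109 and NaCl groups were both PTS + RS mice: the former received the HDAC3 inhibitor RGFP109 under the skin at 60 mg/kg a day, for 2 weeks by the labels and for 21 days by another account in the study, and the latter is the control arm, which the labels call NaCl and the methods vehicle. In these groups replicate 1 is labelled as cortex and replicate 2 as amygdala. An age, about 3 months, is given only for the mice of the open field test. Whether a library holds a single mouse or a pool was not given in the sources used here, so the p-values measure only the spread between libraries.

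Total counts on genes lay between 15902013 and 21712033 per library. Markers gave no clear backing to the tissue labels of the RGFP109 and NaCl libraries: a list of 10 cortex marker genes summed to 901 and 804 CPM (counts scaled to library size) in the 2 libraries labelled amygdala and to 462 and 578 CPM in those labelled cortex, and 10 amygdala markers summed to 399 and 437 against 468 and 590 CPM. In NaCl replicate 1 a single gene, Tshz1, made up 340 of the 590 CPM, and without it the amygdala sums were 359 and 401 in the libraries labelled amygdala against 439 and 251 in those labelled cortex. These libraries are therefore called by replicate number. NaCl replicate 1 stood apart, with olfactory bulb markers at 1609 CPM against 21.8 to 47.4 CPM in the other 7 libraries. Choroid plexus markers ranged from 145 to 5551 CPM across the 8 libraries.

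Promoter sequence is shown because PU.1, an ETS family factor of myeloid cells, is known to bind the letters GAGGAAG. RefSeq windows on GRCm38.p6 were held for 7 of the 9 genes, 9 windows in all, with no window for Tyrobp and Lyn. The 250 bases before each start were searched on both strands. GAGGAAG was found in 4 of the 9 windows, one each for Trem2, Vav1, Inpp5d and Pik3cg, and in 10.6% of all 32851 windows. The shorter GAGGAA, which lies within it, was found in 5 of the 9 windows and in 23.3% of all. The composite ETS and IRF element that PU.1 shares with IRF factors was found in none of the 9 windows and in 2.3% of all. TATAAA was found in none of the 9 and in 12.4% of all. The last 100 bases before the start are given below for the genes in which GAGGAAG lay closest to it, 5′ to 3′ on the gene's strand, with GAGGAA or its reverse complement in capitals.
Trem2 (chr17:48346301-48346400, plus strand): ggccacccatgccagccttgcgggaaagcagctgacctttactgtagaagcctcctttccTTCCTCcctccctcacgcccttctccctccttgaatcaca
Vav1 (chr17:57279000-57279099, plus strand): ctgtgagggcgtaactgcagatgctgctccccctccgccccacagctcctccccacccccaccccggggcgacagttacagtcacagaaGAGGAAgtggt
Inpp5d (chr1:87620212-87620311, plus strand): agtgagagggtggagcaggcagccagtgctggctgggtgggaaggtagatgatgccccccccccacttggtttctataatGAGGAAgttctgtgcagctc
The 7 letters spanned bases 41 to 35 before the start in Trem2, on the reverse strand, bases 11 to 5 in Vav1 and bases 20 to 14 in Inpp5d. A match describes these letters only and is not evidence that PU.1 was bound. The 9 genes were chosen with earlier results known, so the shares of windows are a description and were not tested.

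To learn how the pathway differed between stressed mice with and without stroke, PTS + RS was compared with RS by edgeR's quasi-likelihood test, and a gene was called at a Benjamini-Hochberg adjusted p under 0.05 over 17581 genes. All 9 genes were upregulated in the PTS + RS group, and in all 9 both PTS + RS libraries lay above both RS libraries. Over all tested genes 2.96% were called higher, 0.586% were called lower and 25.7% had both PTS + RS libraries above both RS libraries. The median log2 fold change was 1.81 over the 9 genes and -0.0015 over all tested genes.

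**Figure D1:**
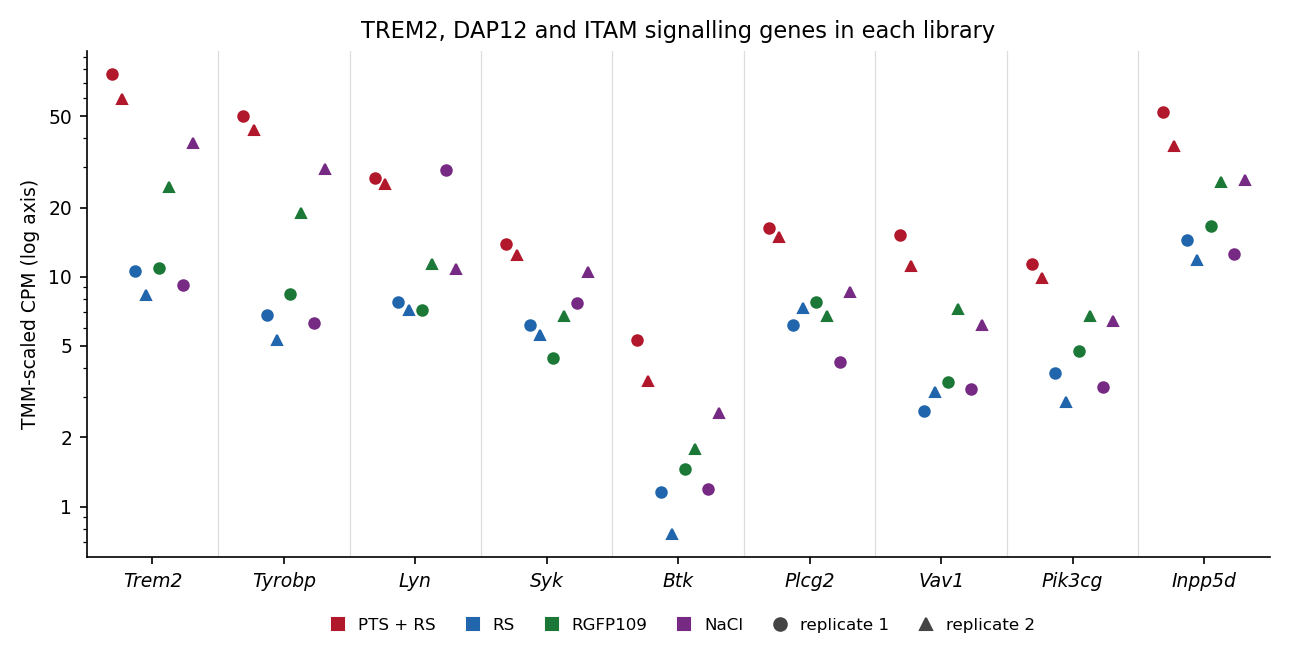
TMM-scaled CPM (log axis) of the 9 genes in each of the 8 libraries, coloured by group, with circles for replicate 1 and triangles for replicate 2. Both PTS + RS libraries lie above both RS libraries for every gene, while the RGFP109 and NaCl points overlap for every gene but Syk. The PTS + RS and RS libraries were scaled apart from the other 4.

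The receptor and its adaptor had the largest fitted rises of the 9. Trem2 (ENSMUSG00000023992, chr17:48346401-48354147, plus strand) stood at 76.4 and 59.5 CPM in the PTS + RS libraries and at 10.5 and 8.33 CPM in the RS libraries. The groups lay far apart and the replicates close together, a 7.18-fold difference with a 95% interval of 5.44 to 9.48 (log2 fold change 2.84 ± 0.170 SE, edgeR adjusted p = 0.000483). Tyrobp (ENSMUSG00000030579, chr7:30413760-30417585, plus strand), which carries the ITAM, stood at 49.9 and 43.6 CPM against 6.84 and 5.30 CPM. Its difference was 7.67-fold, with an interval of 5.93 to 9.91 (log2 fold change 2.94 ± 0.157 SE, edgeR adjusted p = 0.000376). The intervals of Trem2 and Tyrobp overlapped almost entirely.

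The kinases had smaller fitted rises than the receptor pair, but the interval of Btk overlapped those of Trem2 and Tyrobp. Lyn (ENSMUSG00000042228, chr4:3678115-3813122, plus strand), the Src family kinase, stood at 27.0 and 25.3 CPM in PTS + RS and at 7.73 and 7.19 CPM in RS. This was 3.50-fold, with an interval of 2.80 to 4.38 and close replicates (log2 fold change 1.81 ± 0.136 SE, edgeR adjusted p = 0.00112). Of the 9 genes only Lyn shares exon bases with another annotated gene, 248 bases with Gm26857 on the opposite strand, which had between 0 and 14 counts in any library. Syk (ENSMUSG00000021457, chr13:52583173-52648792, plus strand), the kinase that docks on the phosphorylated ITAM, stood at 13.8 and 12.5 CPM against 6.18 and 5.55 CPM. It showed the smallest rise of the 9, 2.24-fold with an interval of 1.69 to 2.96 (log2 fold change 1.16 ± 0.171 SE, edgeR adjusted p = 0.0151), and this interval lay wholly below those of Trem2 and Tyrobp. Btk (ENSMUSG00000031264, chrX:134542336-134583570, minus strand), a TEC family kinase that activates phospholipase C gamma, was the lowest of the 9 in CPM, at 5.31 and 3.53 against 1.16 and 0.761 CPM. Its rise was 4.55-fold, with the widest interval of the 9, from 2.50 to 8.31 (log2 fold change 2.19 ± 0.368 SE, edgeR adjusted p = 0.0252). Without RS replicate 2, Syk and Btk were no longer called (edgeR adjusted p = 0.0673 and 0.0552).

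Among the effectors, Vav1 (ENSMUSG00000034116, chr17:57279100-57328031, plus strand), which activates Rac GTPases, stood at 15.2 and 11.2 CPM in PTS + RS and at 2.59 and 3.15 CPM in RS. The gene rose 4.59-fold, with an interval of 3.13 to 6.73 (log2 fold change 2.20 ± 0.234 SE, edgeR adjusted p = 0.00397). Pik3cg (ENSMUSG00000020573, chr12:32173473-32208659, minus strand), a catalytic PI3 kinase subunit of leukocytes, stood at 11.4 and 9.87 CPM against 3.81 and 2.84 CPM. It rose 3.18-fold, with an interval of 2.22 to 4.57 (log2 fold change 1.67 ± 0.221 SE, edgeR adjusted p = 0.00948). Plcg2 (ENSMUSG00000034330, chr8:117498291-117635142, plus strand), which cleaves PIP2 to release calcium and diacylglycerol signals, stood at 16.3 and 15.0 CPM against 6.18 and 7.32 CPM. Like Syk it rose little for this set, 2.32-fold with an interval of 1.76 to 3.05 (log2 fold change 1.21 ± 0.167 SE, edgeR adjusted p = 0.0115). The inhibitory phosphatase gene Inpp5d (ENSMUSG00000026288, chr1:87620312-87720507, plus strand) stood at 52.0 and 37.1 CPM against 14.4 and 11.9 CPM. It therefore rose along with the activating genes, 3.38-fold with an interval of 2.49 to 4.59 (log2 fold change 1.76 ± 0.187 SE, edgeR adjusted p = 0.00397).

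Levels of different genes were compared per length, in FPKM (fragments scaled to gene length and library size), given as mean ± SD with n = 2. In the PTS + RS group Tyrobp was highest at 69.6 ± 6.39, followed by Trem2 at 13.6 ± 2.35. Lyn at 6.38 ± 0.275 and Inpp5d at 5.81 ± 1.35 did not differ beyond their spread, nor did Plcg2 at 3.61 ± 0.205 and Vav1 at 3.55 ± 0.747. Syk at 1.39 ± 0.0995, Btk at 1.39 ± 0.393 and Pik3cg at 1.25 ± 0.122 came last and could not be ordered. In the RS group Tyrobp again led at 9.06 ± 1.62, and Trem2 at 1.90 ± 0.312, Lyn at 1.82 ± 0.0898, Inpp5d at 1.72 ± 0.233 and Plcg2 at 1.56 ± 0.188 lay within reach of each neighbour's spread. Below them were Vav1 at 0.776 ± 0.108, Syk at 0.624 ± 0.0464, Pik3cg at 0.393 ± 0.0804 and Btk at 0.303 ± 0.0894. The gap between Tyrobp and Trem2 depends on the gene length: the deposited length of Trem2, 4946 bases, covers the exons of all its transcripts, whereas its principal transcript has 1088 bases. Per kilobase of the principal transcript, Trem2 reached 62.5 CPM and Tyrobp 82.9 CPM in PTS + RS, against 13.7 and 70.1 CPM per kilobase of the deposited lengths. In RS on the same scale, Trem2 was at 8.67, well above Inpp5d at 2.66, Lyn at 2.20 and Plcg2 at 1.57 CPM per kilobase. The order of Trem2 and its neighbours in RS thus depends on the length used. So does that of Vav1 and Syk in RS, at 0.970 and 1.09 CPM per kilobase of the principal transcript. In PTS + RS, Syk was at 2.45, Pik3cg at 1.81 and Btk at 1.74 CPM per kilobase of the principal transcript.

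**Figure D2:**
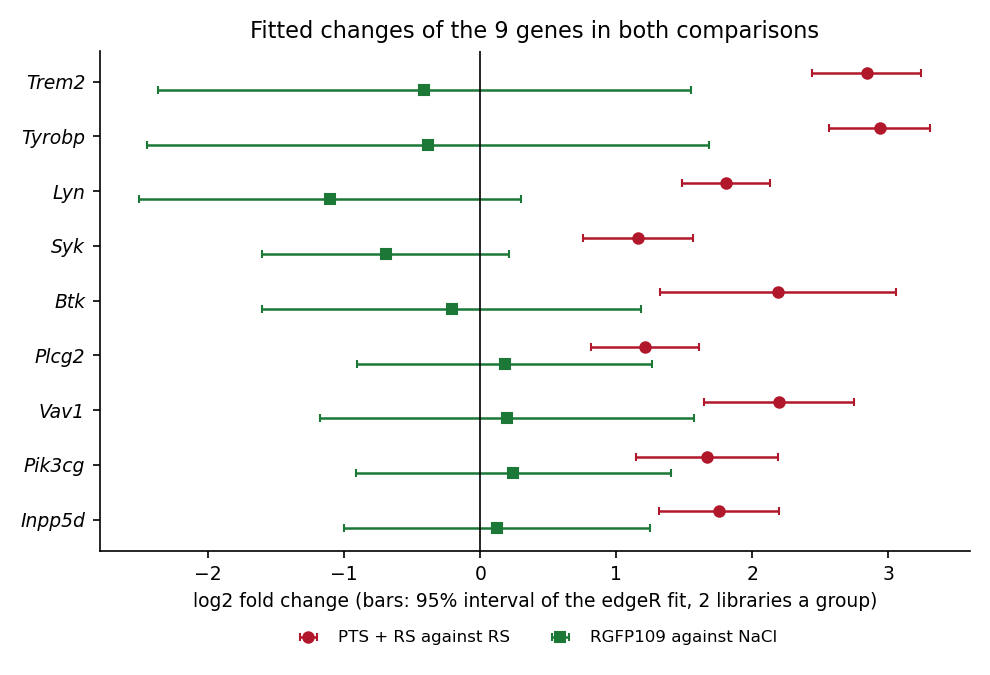
Fitted log2 fold change of each gene (points) with its 95% interval from edgeR (bars), for PTS + RS against RS in red circles and RGFP109 against NaCl in green squares. All 9 red intervals lie above 0, from 1.16 for Syk to 2.94 for Tyrobp, and all 9 green intervals include 0.

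The wider pathway was read from 5 lists. Of the ligands of TREM2 and the proteins that shed or regulate it, 3 of 8 tested genes were called higher and none lower, with a median log2 fold change of 0.60. Ms4a6d, a relative of the MS4A4A protein that modulates TREM2, rose by 3.07 ± 0.618 SE (edgeR adjusted p = 0.047), Lgals3, the galectin 3 gene, by 2.60 ± 0.217, and Apoe by 1.08 ± 0.151, from a mean of 1293 to 2740 CPM. The lowest in this list were the sheddase gene Adam10, with a log2 fold change of 0.05, and the gamma-secretase gene Ncstn, with 0.24, neither of which was called. The remaining gene of this list, Ms4a4a, was too low to be tested, with 9 and 3 counts in PTS + RS and 1 and 0 in RS.

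A list of 12 other genes held ITAM receptors and adaptors together with relatives of Trem2 and Tyrobp. Of these, 6 could be tested, 5 were called higher and none lower. Of these 6, Clec7a, Treml2 and Cd300lb passed the filter through the PTS + RS libraries alone, so the count is no support for the list. Among the 6 that were not tested, Trem3 had 2 counts in PTS + RS and 5 in RS, and Treml4 had 2 and 3. Clec7a, the beta-glucan receptor Dectin-1, had the largest change, from 0.166 and 0.568 CPM in RS to 28.1 and 17.2 CPM in PTS + RS (log2 fold change 5.97 ± 0.449 SE). Treml2, a neighbour of Trem2 in the TREM gene cluster, rose by 4.03 ± 0.468, from 0.221 and 0.189 CPM in RS. Siglech, a lectin that itself signals through DAP12, rose least of those called, by 0.84 ± 0.128, and Clec5a, another DAP12 partner, had a log2 fold change of 1.79 and was not called (edgeR adjusted p = 0.067).

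The kinases and adaptors next to the receptors behaved less uniformly, with 5 of 19 called higher, none lower and a median of 0.33. Fgr, a Src family kinase of myeloid cells that passed the filter through PTS + RS alone, rose by 3.51 ± 0.662 and Lcp2, the SLP-76 adaptor that brings PLC gamma and VAV together, by 2.56 ± 0.261. Bmx, a TEC family kinase, had a log2 fold change of -0.75 and was not called. Of 21 further PLC, VAV, PI3 kinase and Rac genes, 4 were called higher and none lower, with a median of 0.26. Rac2, the Rac GTPase of blood cells, rose by 2.72 ± 0.340, the PI3 kinase adaptor gene Pik3ap1 by 2.27 ± 0.245, the PI3 kinase gamma regulatory gene Pik3r5 by 1.54 ± 0.264 and Rasgrp3 by 1.19. Pik3r2 and Akt2, with -0.21 and -0.11, were the lowest and were not called.

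On the inhibitory side, 6 of 17 receptors and phosphatases were called higher and none lower, and 6 of the 17, among them Lilrb4a and Cd300lf, passed the filter through PTS + RS alone. Lilrb4a, an ITIM receptor, rose by 4.53 ± 0.389, and Cd300lf, another, had 42 and 29 counts in PTS + RS against 4 and 0 in RS, a ratio of 17.9 with a 95% counting interval of 6.68 to 67.4. Ptpn11, the SHP-2 phosphatase found in most cell types, had a log2 fold change of -0.07 and was not called. The 5 lists were chosen with earlier results of these libraries known, so their counts are a description.

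Relatives of the 9 genes in the same protein families changed by less in most cases. Plcg1, the widely expressed relative of Plcg2, stood at 13.4 FPKM in PTS + RS and 13.6 FPKM in RS on average (log2 fold change -0.03 ± 0.0759 SE). Plcg1 was thus the more abundant of the pair in both groups, while Plcg2 changed and Plcg1 was not called (edgeR adjusted p = 0.896). Vav2 and Vav3 had log2 fold changes of 0.41 and 0.05 against 2.20 for Vav1. The PI3 kinase catalytic genes Pik3ca, Pik3cb and Pik3cd had 0.07, 0.09 and 0.38 against 1.67 for Pik3cg, and Zap70, the T cell relative of Syk, had 0.33. None of these was called.

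In the Src family Fgr, which like Lyn is used by myeloid cells, rose (edgeR adjusted p = 0.0381), whereas Fyn, Src and Yes1 had log2 fold changes of 0.15, -0.15 and 0.25 and were not called. Fyn and Src were far more abundant than Lyn in PTS + RS, at 35.8 and 30.5 FPKM on average. Tec, a relative of Btk, had 1.09 and was not called (edgeR adjusted p = 0.0909). Inppl1, which encodes the SHIP2 phosphatase, rose by 0.43 ± 0.0888 and just passed the threshold (edgeR adjusted p = 0.0496). Fcer1g, the other ITAM adaptor of microglia, rose by 3.03 ± 0.163, and its mean FPKM of 48.8 in PTS + RS was of the order of Tyrobp's. Hcst, the DAP10 gene, and Trem1 were too low to be tested.

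**Figure D3:**
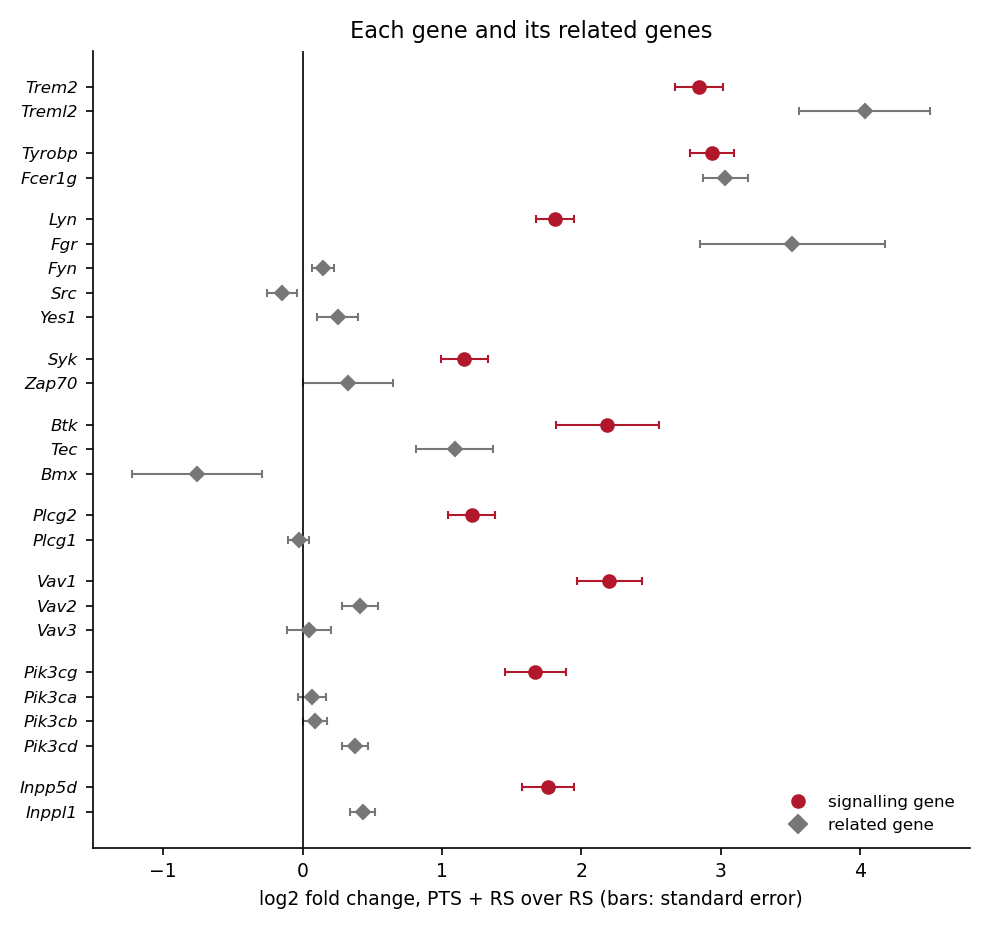
Log2 fold change of PTS + RS over RS (points) with its standard error (bars) for the 9 genes in red circles and tested relatives in grey diamonds, grouped by family. Treml2, Fcer1g and Fgr lie at 3.03 or above, while Plcg1, Vav3, Fyn, Src, Pik3ca and Pik3cb lie between -0.15 and 0.15.

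The rise of the 9 genes went with that of microglial markers, and in bulk tissue a change in the number of cells cannot be told apart from a change in RNA per cell. All 16 microglial markers were detected in every library and all 16 were called higher in PTS + RS, with a median log2 fold change of 1.79. They summed to 1574 and 1808 CPM in PTS + RS and to 402 and 447 CPM in RS, a 3.99-fold difference of the means. Single markers rose between 1.89-fold (Sall1) and 6.88-fold (C1qb). Sums of other leukocyte markers were also higher, from much lower levels, and for neutrophil and lymphocyte markers largely through single genes. Of 5 tested border macrophage and monocyte markers 1 was called higher and none lower. Neutrophil markers summed to 33.0 and 45.5 CPM against 8.58 and 8.88 CPM, with 6 or 7 of 10 detected in PTS + RS, 3 or 4 in RS and Ly6g at 0 in all 4 libraries, lymphocyte markers to 6.04 and 8.64 against 2.32 and 2.59 CPM, with Cd3g and Ms4a1 at 0 in all 4, and border macrophage and monocyte markers to 17.5 and 36.2 against 10.1 and 11.97 CPM. Choroid plexus markers were at 227 and 2534 CPM in PTS + RS and at 2763 and 5551 CPM in RS. Csf3r made up 44.5 and 32.3 CPM of the neutrophil sums in PTS + RS, and the other 9 genes gave 0.934 and 0.718 CPM against 0.938 and 0.315 CPM in RS. Without Cd22, at 5.31 and 3.17 against 0.166 and 0.189 CPM, the lymphocyte sums were 3.33 and 2.87 against 2.15 and 2.398 CPM. Astrocyte markers summed to 5981 and 5392 CPM in PTS + RS and to 4309 and 4358 CPM in RS, and 4 of 10 (Aqp4, S100b, Slc1a3 and Gja1) were called higher, by between 1.496-fold and 2.01-fold. Of 10 oligodendrocyte markers 1 was called higher and none lower. The part of these cells in the result was not tested.

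Each gene was therefore set against the summed microglial markers of its own library, as CPM per 100 CPM of markers. Trem2 stood at 4.23 and 3.78 in PTS + RS against 2.36 and 2.07 in RS, and Tyrobp at 2.76 and 2.77 against 1.53 and 1.32. Both thus increased by more than the marker sum did, by factors of 1.81 and 1.94. They did not exceed every marker: C1qa, C1qb and C1qc rose 6.09-fold, 6.88-fold and 6.44-fold, with intervals that overlapped those of Trem2 and Tyrobp. Of all tested genes, 0.876% had both PTS + RS libraries above both RS libraries on this scale. Vav1 at 0.840 and 0.711 against 0.581 and 0.786, and Btk at 0.294 and 0.224 against 0.259 and 0.189, overlapped between the groups. Lyn, Inpp5d and Pik3cg were lower in PTS + RS, at 0.881, 0.847 and 0.806 of their RS means.

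Syk stood at 0.765 and 0.791 against 1.38 and 1.38, and Plcg2 at 0.901 and 0.9504 against 1.38 and 1.82. Syk and Plcg2 were the lowest relative to RS, at 0.562 and 0.577 of their RS means, but 97.5% of all tested genes also had both PTS + RS libraries below both RS libraries on this scale, so a lower value is shared with most genes. In terms of fitted changes, the log2 fold change of Tyrobp exceeded the marker median by 1.15 and that of Trem2 by 1.05, those of Lyn, Inpp5d and Pik3cg lay at 0.017, -0.033 and -0.12 from it, and those of Plcg2 and Syk were lower, at -0.58 and -0.63 from it.

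**Figure D4:**
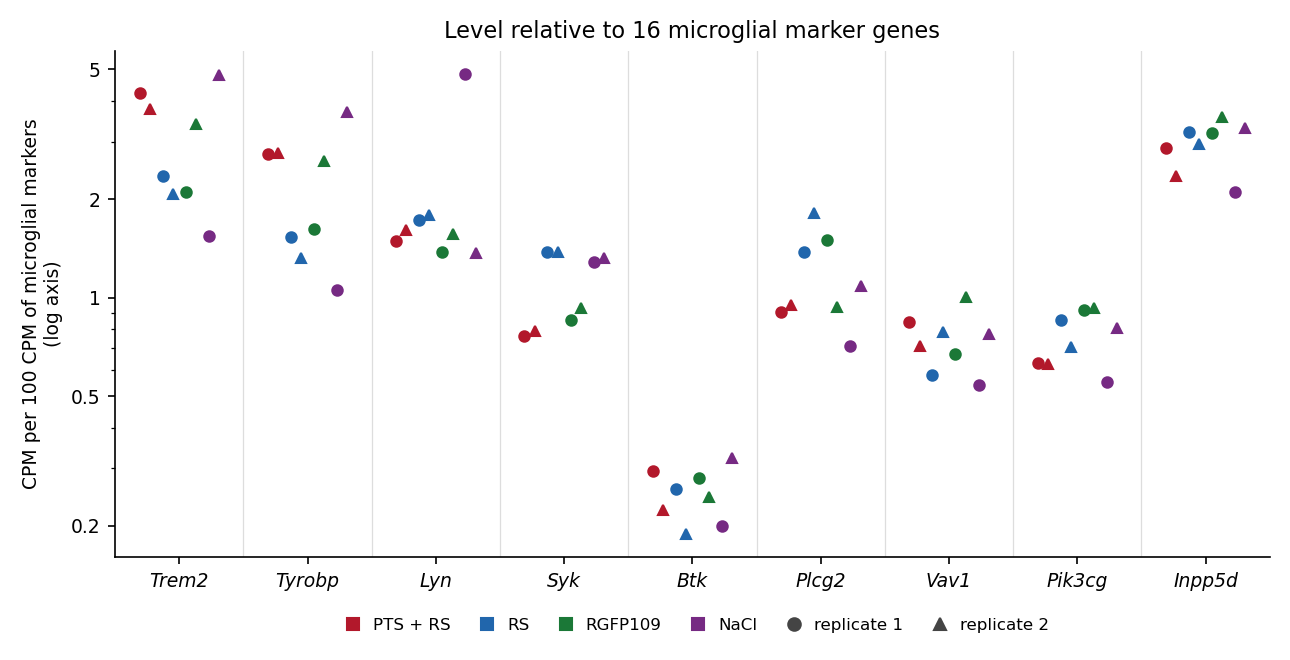
CPM of each gene per 100 CPM of 16 summed microglial markers (log axis) in each of the 8 libraries, with colours for groups and circles and triangles for replicates 1 and 2. Trem2 and Tyrobp are higher in both PTS + RS libraries than in both RS libraries. Syk, Plcg2, Lyn, Inpp5d and Pik3cg are lower, as are 97.5% of all tested genes. Lyn is highest in NaCl replicate 1, at 4.85.

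RGFP109 was compared with NaCl to learn whether the drug altered the pathway in PTS + RS mice. This control arm did not show the levels of the PTS + RS libraries. The 9 genes summed to 76.8 and 139 CPM in NaCl. They summed to 267 and 218 CPM in PTS + RS and to 59.4 and 52.3 CPM in RS. Microglial markers summed to 598 and 792 CPM in NaCl, against 1574 and 1808 CPM in PTS + RS. Of the 9 genes only Lyn, at 29.0 CPM in NaCl replicate 1, reached its PTS + RS level. The 2 comparisons were scaled apart, and this difference was not tested. The study calls RGFP109 an HDAC3 inhibitor and also describes it as selective for both HDAC1 and HDAC3. None of the 9 genes was called, and all adjusted p-values were 1 by edgeR's quasi-likelihood test. No gene was called in the whole table either, so that 0% of 17565 genes were called higher and 0% lower; at an unadjusted p under 0.05, 88 genes were higher and 118 lower, none of them among the 9. DESeq2 and limma also called 0 genes. The coefficient of variation between replicates was 32.1% here against 11.4% in the PTS + RS and RS libraries, and the intervals of the 9 genes were correspondingly wide.

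Trem2 stood at 10.9 and 24.6 CPM with RGFP109 (replicates 1 and 2) and at 9.22 and 38.1 CPM with NaCl. The replicates differed more than the groups, and the log2 fold change of -0.41 had an interval from -2.37 to 1.55. Tyrobp followed the same order, at 8.44 and 18.9 CPM against 6.31 and 29.4 CPM (log2 fold change -0.38, interval -2.45 to 1.68). Without NaCl replicate 1, the library with olfactory bulb markers, Trem2 and Tyrobp had log2 fold changes of -1.10 and -1.11, and without NaCl replicate 2 they had 0.96 and 1.13, none of them called. With the replicate number, which carries the tissue label, as a block, the log2 fold changes were -0.21 ± 0.295 SE for Trem2 and -0.13 ± 0.337 SE for Tyrobp, against SEs of 0.754 and 0.796 without it.

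Syk was the only one of the 9 with both RGFP109 libraries, at 4.44 and 6.73 CPM, below both NaCl libraries, at 7.68 and 10.4 CPM. Its log2 fold change of -0.69 had an interval from -1.60 to 0.21, and both RGFP109 libraries lay below both NaCl libraries in 13.8% of all tested genes. None of the 9 had both RGFP109 libraries above both NaCl libraries, against 12.8% of all. Lyn stood at 7.17 and 11.3 CPM with RGFP109 and at 29.0 and 10.8 CPM with NaCl. The high value belonged to NaCl replicate 1, and its log2 fold change went from -1.10 (interval -2.51 to 0.30) to -0.23 without that library.

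The other genes overlapped between the groups with fitted changes near 0. Plcg2 stood at 7.80 and 6.78 CPM with RGFP109 and 4.27 and 8.59 CPM with NaCl. Vav1 stood at 3.49 and 7.24 against 3.24 and 6.14 CPM, and Pik3cg at 4.76 and 6.73 against 3.30 and 6.42 CPM. Inpp5d stood at 16.6 and 25.8 against 12.6 and 26.3 CPM, and Btk at 1.46 and 1.78 against 1.19 and 2.56 CPM. Their log2 fold changes were 0.18 for Plcg2, 0.20 for Vav1, 0.24 for Pik3cg, 0.13 for Inpp5d and -0.21 for Btk, and every interval reached past 1 in at least 1 direction.

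In Trem2 and Tyrobp the replicates of these 4 libraries differed more than the groups did. Replicate 2 exceeded replicate 1 in Trem2 by 2.24-fold with RGFP109 and 4.09-fold with NaCl, and in Tyrobp by 2.22-fold and 4.596-fold. The summed microglial markers differed by 1.39-fold and 1.32-fold in the same direction. In NaCl replicate 1 a single marker, Sall1, made up 208 of the 598 CPM, against 23.7 CPM in NaCl replicate 2. The 1.32-fold difference, and values set against the markers of NaCl replicate 1, therefore rest in part on that gene. Per 100 CPM of markers, Trem2 was at 2.10 and 3.40 with RGFP109 and at 1.54 and 4.81 with NaCl. In a fit of replicate number and treatment together, replicate 2 was 3.05-fold replicate 1 in Trem2, with a 95% interval of 1.76 to 5.30, and 3.22-fold in Tyrobp, with an interval of 1.72 to 6.05, but neither was called (edgeR adjusted p = 0.372 and 0.383). In this fit 0% of 17565 genes were called higher and 0% lower by edgeR, the only tool run here, and 1069 were higher and 538 lower at an unadjusted p under 0.05. Replicate 2 was also higher with RGFP109 and with NaCl in Vav1 (2.04-fold and 1.87-fold), Inpp5d (1.55-fold and 2.08-fold) and Pik3cg (1.41-fold and 1.91-fold). The same held for Btk and for Syk (1.503-fold and 1.35-fold). In the fit, the intervals of Vav1 (1.12 to 3.501) and Inpp5d (1.18 to 2.76) also excluded equal levels, but neither gene was called. Syk with RGFP109 was at 0.584 and 0.648 of NaCl. The contrast was not uniform over the 9 genes. Plcg2 was at 0.871 of replicate 1 with RGFP109 but 1.99-fold it with NaCl. Lyn was at 0.375 of replicate 1 with NaCl but 1.57-fold it with RGFP109. Tissue, mouse and library cannot be told apart here. The lymphocyte marker sum was also higher in replicate 2, at 15.5 and 15.3 CPM against 3.23 and 1.71 CPM. Cd4 alone gave 11.7 and 10.5 CPM of it, and the other 11 genes gave 3.83 and 4.84 against 2.92 and 1.37 CPM. Their part in the contrast was not tested.

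Across the 8 libraries, the genes whose log2 CPM followed Trem2 most closely among 15507 genes were C1qb (Pearson r = 0.997), Tyrobp (0.996), C1qc (0.996), Cd84 (0.995) and Cd52 (0.994). Of the 9, Inpp5d (0.982), Btk (0.968), Pik3cg (0.967) and Vav1 (0.964) stayed close to Trem2, Syk (0.887) and Plcg2 (0.855) less so, and Lyn, with its high value in NaCl replicate 1, least (0.558). Syk was followed most closely by Fhl3 (0.983), Tcirg1 (0.979), Plin2 (0.976), Arpc1b (0.976) and Snx20 (0.974), none of them among the 9. These coefficients rest on 8 libraries from 2 separately scaled tables, and the difference between PTS + RS and the other groups carries much of them.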

How the data were processed

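Brain RNA of 8 libraries was sequenced for the study, 2 in each of the PTS + RS, RS, RGFP109 and NaCl groups. By the submitters' processing notes and the study's methods, reads were aligned to GRCm38 with STAR 2.4.0 and counted per gene with HTSeq 0.6.1. The authors deposited these counts, whole and without normalization, and FPKM values. Within each library the FPKM were proportional to the count divided by gene length, on a library scale that was not the total count on genes. The labels and the methods name different library kits and the strand setting of the counting was not given in the sources used here. Deposited fold changes and p-values of the authors' own comparisons were not used, nor were 8 per-sample columns of normalized signal.

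Genes of the second table were matched to identifiers by coordinates, for all 28229. Counts were filtered by filterByExpr, scaled by TMM and compared by the quasi-likelihood test of edgeR 4.0.16 (R 4.3.3) with Benjamini-Hochberg adjustment, within each table, without a replicate block; CPM are scaled by TMM. The fit was tested on simulated data. DESeq2 1.42.0 and limma 3.58.1 served as alternatives. Precision was set by the spread between replicates, with log CPM correlations of 0.982 (PTS + RS), 0.990 (RS), 0.966 (RGFP109) and 0.943 (NaCl). Counting intervals of ratios are exact binomial at 95% and cover counting error only.

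The 9 genes and all lists were chosen with earlier results of these data known. Named genes were all 9, the 2 highest and 2 lowest of each list, every called gene of lists with at most 4, fixed relatives, and the 5 genes most like Trem2 and Syk over genes with a mean of at least 1 CPM. Some genes that this rule names are not reported here. Principal transcripts are those of GENCODE M21, and this length and the fit of replicate 2 against 1 in the RGFP109 and NaCl libraries were added after the values were seen. Promoter windows are from RefSeq.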

Additional observations from a re-analysis of the deposited data

Results flagged for a closer look

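In 6 of the 9 genes the log2 ratio of RGFP109 over NaCl had opposite signs in replicate 1, labelled cortex, and replicate 2, labelled amygdala. The share of all tested genes with opposite signs was not determined, so the count is not a trait of the 9 genes. Each ratio is between 2 single libraries, and the difference was not tested. Trem2 was at 0.24 in replicate 1 and -0.63 in replicate 2, and Tyrobp at 0.41 and -0.64. Plcg2 was at 0.85 and -0.34, Inpp5d at 0.39 and -0.025, and Btk at 0.27 and -0.50. Lyn had the opposite order, at -2.001 in replicate 1 and 0.063 in replicate 2, and its value in replicate 1 rests on the NaCl library with olfactory bulb markers. Syk was below 0 in both, at -0.78 and -0.63.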

How the results depend on the processing

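All 9 genes were called higher in PTS + RS under every alternative but 2, in which 7 were: limma on log2(FPKM + 1), where Syk and Btk had adjusted p-values of 0.0729 and 0.0617, and the fit without RS replicate 2. Over all genes, 1119 were called higher and 716 lower without the filter on low counts, 304 and 68 with limma on log2(FPKM + 1), and 187 lower with DESeq2, against 521 and 103. Leaving out 1 library gave 339 to 1413 higher and 32 to 1278 lower. With the replicate block, 687 genes were higher and 228 lower, and all 9 genes were called. The correlation of replicate differences was 0.035 in PTS + RS and RS and 0.30 in RGFP109 and NaCl, where the numbers also carry the tissue labels; there the block left 0 calls.

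In RGFP109 against NaCl every alternative gave 0 calls except leaving out NaCl replicate 2 (range 0 to 15 higher and 0 to 78 lower, none among the 9). Leaving out 1 library turned the sign of uncalled changes, with log2 fold changes from -1.12 to 0.96 for Trem2, -1.11 to 1.13 for Tyrobp, -0.25 to 0.78 for Plcg2, -0.43 to 0.74 for Vav1, -0.31 to 0.77 for Inpp5d, -0.66 to 0.45 for Btk and -0.16 to 0.81 for Pik3cg; the cause was not tested.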
